A study of Mus musculus with 30 samples.

Results

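The 38 genes described here form a module of immediate-early and heat-shock genes, listed by name with earlier results of these data known. All 38 are among the 45317 genes of the count table, and each was followed over all 8 sorted cell populations of glioma-bearing mice. They comprise 29 immediate-early and stress genes and 9 heat-shock genes. The animals were heterozygous knock-in C57BL6.CCR2RFP/WT mice, 12 to 18 weeks old, in which 1 copy of Ccr2 is replaced by a red fluorescent protein. Every mouse, blood donors included, carried a GL261.BpalmGFP glioma that had grown in the striatum for about a month. GL261 is a mouse glioma line that here anchors GFP in its membranes, so that GFPpos cells are those that had taken up tumor membrane and GFPneg cells are those in which none was seen. From the blood came Ly6Chigh monocytes (CD45 and CD115 positive, CD11c negative), the type that enters inflamed tissue, and Ly6Clow monocytes, which patrol the vessel wall. From the brain came glioma monocytes, CCR2high macrophages and CCR2low macrophages, each sorted as GFPneg and GFPpos. A single tumor line and 4 mice, of both sexes, limit how far the groups stand for glioma in general.

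Brain and blood were handled differently before sorting. The brain was released with dispase, collagenase and DNase at body temperature and cleared of myelin on Percoll. Blood was drawn on EDTA, and no enzyme was used. Red cells were lysed in both. No population was sorted from brain without enzymes or from blood with them, so the tissue a cell came from and the way it was freed cannot be told apart in any comparison of brain with blood. The brain populations were handled alike, and so were both blood populations.

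Immediate-early genes are transcribed within minutes of a stimulus without new protein synthesis, by factors such as SRF and CREB that wait in the nucleus for a kinase signal. Their products include the AP-1 and EGR transcription factors and the inhibitors that soon shut the response off again (dual specificity phosphatases, the mRNA decay factor Zfp36, the cytokine signalling inhibitor Socs3). Heat-shock genes encode chaperones that fold or refold proteins, and most are driven by HSF1 when unfolded protein builds up. In myeloid cells both groups answer to cytokines, adhesion and mechanical or thermal stress, and both are known to respond to the enzymatic release of tissue.

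The promoters of several members carry the elements those factors bind, and 6 are shown because each holds such an element in full. The RefSeq table of promoters (GRCm38.p6) held an entry for 32 of the 38 members. Cebpd, Egr1, Egr3, Hsp90aa1, Hspa8 and Ier2 were not matched. Each run is the 200 bases before the gene's start, 5′ to 3′ on the gene's strand, with the matched element in capitals. In Hspa1a (chr17:34972157-34972356, minus strand), Hspa1b (chr17:34959239-34959438, minus strand) and Hspe1 (chr1:55087948-55088147, plus strand) the capitals mark the paired heat-shock half-sites GAANNTTC or TTCNNGAA. In Zfp36 (chr7:28379229-28379428, minus strand) they mark a CArG box, the SRF site, and in Dusp1 (chr17:26508473-26508672, minus strand) and Btg2 (chr1:134079156-134079355, minus strand) the CREB site TGACGTCA.
Hspa1a: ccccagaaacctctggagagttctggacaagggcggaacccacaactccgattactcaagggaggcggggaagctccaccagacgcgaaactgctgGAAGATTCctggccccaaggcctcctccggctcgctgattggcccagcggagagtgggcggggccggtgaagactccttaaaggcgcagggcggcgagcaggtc
Hspa1b: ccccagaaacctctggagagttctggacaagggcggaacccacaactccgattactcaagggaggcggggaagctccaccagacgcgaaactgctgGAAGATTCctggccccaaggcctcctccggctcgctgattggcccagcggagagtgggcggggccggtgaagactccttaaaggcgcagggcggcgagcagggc
Hspe1: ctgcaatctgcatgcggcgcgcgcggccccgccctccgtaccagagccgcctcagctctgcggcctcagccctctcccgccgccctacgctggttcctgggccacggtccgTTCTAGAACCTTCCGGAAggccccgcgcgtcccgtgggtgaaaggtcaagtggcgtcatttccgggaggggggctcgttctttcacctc
Zfp36: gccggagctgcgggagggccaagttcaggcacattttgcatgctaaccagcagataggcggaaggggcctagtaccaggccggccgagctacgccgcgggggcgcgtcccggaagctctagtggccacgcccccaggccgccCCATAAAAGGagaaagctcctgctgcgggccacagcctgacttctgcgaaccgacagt
Dusp1: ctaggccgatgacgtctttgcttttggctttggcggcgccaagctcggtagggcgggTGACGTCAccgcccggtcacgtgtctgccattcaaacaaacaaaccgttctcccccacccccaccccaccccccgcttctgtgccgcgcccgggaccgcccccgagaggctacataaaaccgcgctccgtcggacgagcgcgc
Btg2: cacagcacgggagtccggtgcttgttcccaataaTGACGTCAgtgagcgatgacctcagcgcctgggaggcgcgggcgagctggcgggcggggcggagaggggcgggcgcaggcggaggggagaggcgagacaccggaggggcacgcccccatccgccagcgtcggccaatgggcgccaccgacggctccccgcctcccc

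The Hspa1a and Hspa1b runs were identical at 199 of 200 positions. Over the 250 bases before the start and on both strands, GAANNTTC or TTCNNGAA was found in 10 of the 32 members with a promoter (Fosl2, Jun, Egr2, Hspa1a, Hspa1b, Dnaja1, Hsph1, Hspe1, Hspd1 and Cdkn1a), against 12.8% of 32851 promoters in the table. The letters of both patterns can overlap, as they do in Hspe1, and Hspe1 and Hspd1 lie head to head and share their stretch. The CREB site TGACGTCA was found in 4 members (Dusp1, Btg2, Ppp1r15a and Maff), against 1.55% of all promoters. The CArG box was found in 3 members (Egr2, Zfp36 and Dusp5), against 1.47%, and the AP-1 site TGANTCA in none of the 32, against 6.75%. A member was counted if any of its promoters matched, whereas the shares are over single promoters, so the counts and shares are not fully alike. Egr2 and Hsph1, for example, have more than 1 promoter in the table. A match says only that the letters are there.

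The counts behind the module came from 28 replicates, 6 of blood and 22 of brain, with 1553616 to 5689644 reads on genes each. Mice 22, 23 and 24 gave the blood replicates. Glioma monocytes were sorted from mice 22, 24 and 26, whereas each of the 4 gave macrophages. A pair of replicates stood apart. The Ly6Clow library of mouse 23 had a spike-in share of 13.3%, and the GFPpos glioma monocytes of mouse 22 were the sum of 2 libraries with unequal spike-in shares (8.68% and 1.29%). Summed markers of monocytes and macrophages were high in all 8 populations, between 8677 and 44270 CPM. CPM is the count scaled to a common library size, with TMM factors. Markers of microglia summed to 53.0 to 298 CPM in blood and 2092 to 11120 CPM in brain. Sall1, Siglech and Sparc were at 0 in all blood replicates and no microglia marker was at 0 throughout a brain population. Markers of astrocytes summed to 3.40 to 75.4 CPM in blood and 71.5 to 188 CPM in brain, and those of oligodendrocytes, endothelium, neurons, B cells, platelets and red cells to at most 945 CPM in any replicate. Markers of neutrophils reached 2318 CPM and those of T and NK cells 1233 CPM. The part of these markers in the differences below was not tested.

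Several members lie where reads may be shared with another gene. Of the 75-base windows along Hspa1a (chromosome 17, 34969190 to 34972156) 54.2% occur also in another gene, and 55.8% of those along Hspa1b (chromosome 17, 34956436 to 34959238). The same holds for 42.8% of Hsp90aa1, 32.8% of Hspa8 and 29.6% of Hspd1. The exon of Jund overlaps an antisense gene over 52.6% of its length, and the strand setting of the counting is not given in the sources used here. Counts of these members are uncertain to that extent.

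Per kilobase of exon and over all 28 replicates, Fos was the most abundant member (1119 CPM per kb), followed by Zfp36 (701), Junb (687), Ier3 (453) and Hspa8 (282 CPM per kb). Egr3 was at the other end, with no more than 1.36 CPM in any replicate and 0 counts in all 6 blood replicates, and was the 1 member that did not pass the filter on low counts. The other 37 were tested. Of these, 6 (Fosb, Egr2, Dusp2, Nr4a2, Nr4a3 and Maff) passed the filter through their brain libraries alone and had to be higher there. The counts of calls in brain versus blood and against Ly6Chigh monocytes are therefore also given over the other 31, beside the 8838 genes that reached the filter in blood.

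Cells of the brain held more transcript of most immediate-early members and of 5 of the 9 heat-shock members than those of the blood, while Hspa8, the most abundant chaperone here, was not called. In brain versus blood, 27 of the 37 members tested were higher and 2 were lower in brain (edgeR quasi-likelihood test, Benjamini-Hochberg adjusted p under 0.05). Over all 11566 genes tested, 39.3% were called, 26.4% as higher and 12.9% as lower. The median log2 fold change was 1.99 for the members and 0.21 for all genes tested. Of the 31 members that reached the filter in blood, 21 were higher and 2 lower, with a median of 1.25, against 15.8% higher, 16.8% lower and a median of -0.01 over the genes that did so. In 13 members every brain replicate lay above every blood replicate, as in 4.91% of all genes tested. The 13 include Fosb, Egr2 and Nr4a3, which passed the filter through brain alone. The other 10 are among the 31, and no share over the genes that reached the filter in blood was computed for them. In bulk RNA of a sorted population, fewer responding cells and less transcript in each cell cannot be told apart.

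Summed over the 29 immediate-early and stress members, blood replicates ranged from 2381 to 3717 CPM and brain replicates from 7180 to 30070 CPM, with GFPneg glioma monocytes the highest at 18810 to 30070 CPM. Summed over the 9 heat-shock members, blood replicates ranged from 1436 to 2109 CPM and brain replicates from 1756 to 2996 CPM, and the ranges overlapped. Hspa8 makes up most of the heat-shock sum, with a mean of 1214 CPM over all replicates. Of the early and stress members 22 of 28 tested were higher in brain (median log2 fold change 2.62), and 16 of the 22 that reached the filter in blood (median 2.37). Of the heat-shock members, which all reached it, 5 of 9 were higher (median 1.10). The difference between both groups of members was not tested.

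**Figure D1:**
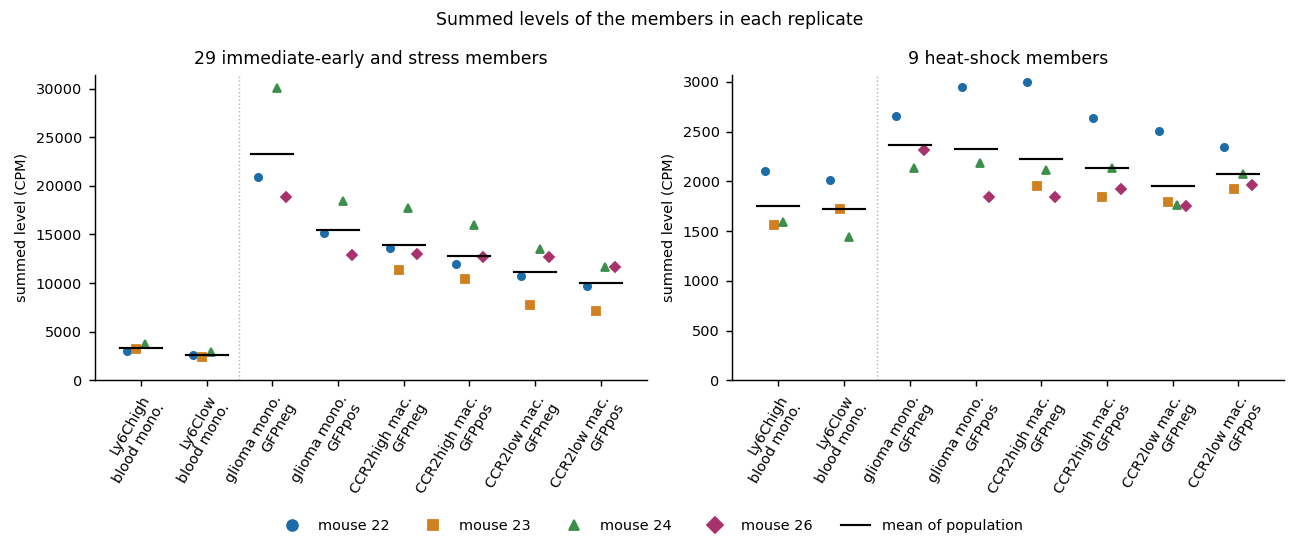
Summed level in CPM of the 29 immediate-early and stress members (left) and of the 9 heat-shock members (right) in each replicate of the 8 populations; points are replicates, marked by mouse, lines are population means, and the dotted line parts blood from brain. Early members sum to at most 3717 CPM in blood and to at least 7180 CPM in brain, while the heat-shock sums overlap and mouse 22 is highest in each population.

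Among AP-1 and related factors, which pair to form the AP-1 dimers, 6 of 8 were higher in brain (Fos, Fosb, Jun, Junb, Atf3 and Maff) and 2 were not called (Fosl2 and Jund). Without Fosb and Maff, 4 of 6 were higher. The blood monocytes of mice 22, 23 and 24 held 282, 427 and 661 CPM of Fos when Ly6Chigh and 73.2, 351 and 160.1 CPM when Ly6Clow. In glioma monocytes of mice 22, 24 and 26 it was at 4480, 7305 and 3675 CPM (GFPneg) and 4850, 6150 and 3027 CPM (GFPpos). In macrophages of mice 22, 23, 24 and 26 the level was 3055, 2280, 3044 and 3330 CPM (CCR2high GFPneg), 2637, 2254, 2769 and 3563 CPM (CCR2high GFPpos), 2095, 1693, 2793 and 2981 CPM (CCR2low GFPneg) and 2387, 1865, 2785 and 2753 CPM (CCR2low GFPpos). No blood replicate reached any brain replicate, and the log2 fold change was 3.44 ± 0.28 (SE; n = 22 brain and 6 blood; edgeR adjusted p = 2.92e-10).

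Junb stood at 548, 467 and 559 CPM in Ly6Chigh and 391, 19.5 and 431 CPM in Ly6Clow monocytes of mice 22, 23 and 24. The values for glioma monocytes of mice 22, 24 and 26 were 2988, 4238 and 3223 CPM in GFPneg and 616, 2485 and 1901 CPM in GFPpos cells. For macrophages (mice 22, 23, 24 and 26) the values were 2063, 1538, 2336 and 1800 CPM (CCR2high GFPneg), 1654, 1251, 2012 and 1327 CPM (CCR2high GFPpos), 1590, 1134, 1840 and 2277 CPM (CCR2low GFPneg) and 1385, 953, 1567 and 1681 CPM (CCR2low GFPpos). The lowest brain replicate (616.5 CPM) was the summed pair of mouse 22, and the lowest of blood (19.5 CPM) the Ly6Clow library of mouse 23, both of which stand apart. The log2 fold change of Junb was 2.28 ± 0.37 (edgeR adjusted p = 1.92e-05). Fosb, a Fos paralog, was at 0 to 1.82 CPM in blood and 17.5 to 112 CPM in brain. Atf3, a stress-induced partner of Jun, rose from 8.37 to 83.8 CPM in blood to 111 to 798 CPM in brain, without overlap. Jun itself overlapped, at 5.93 to 59.6 CPM in blood and 34.0 to 534 CPM in brain (log2 fold change 2.59 ± 0.66, edgeR adjusted p = 0.00269). Fosl2 had a log2 fold change of -0.02 ± 0.30 and Jund of 0.68 ± 0.46.

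Among the other immediate-early transcription factors, 5 of 6 tested were higher in brain (Egr1, Egr2, Nr4a2, Nr4a3 and Klf6) and Cebpd was lower. Without Egr2, Nr4a2 and Nr4a3, 2 of 3 were higher. Klf6 is a zinc finger factor present in resting myeloid cells, and Egr1 a zinc finger factor that is nearly silent until induced. In blood, Klf6 was at 439, 497 and 455 CPM in the Ly6Chigh monocytes of mice 22, 23 and 24 and at 402, 236 and 425 CPM in their Ly6Clow monocytes. Glioma monocytes of mice 22, 24 and 26 held 919, 1488 and 977 CPM when GFPneg and 738, 1093 and 633 CPM when GFPpos. Macrophages of mice 22, 23, 24 and 26 held 673, 482, 926 and 735 CPM (CCR2high GFPneg), 542, 403, 634 and 743 CPM (CCR2high GFPpos), 501, 411, 807 and 717 CPM (CCR2low GFPneg) and 434, 398, 559 and 567 CPM (CCR2low GFPpos). The groups overlapped for Klf6, with a log2 fold change of 0.78 ± 0.18 (edgeR adjusted p = 0.000948). With spike-in scaling the calls of Klf6 (adjusted p = 0.127), Btg2 (0.164) and Dusp5 (0.0942) were lost.

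The blood monocytes of mice 22, 23 and 24 held 18.7, 2.33 and 11.2 CPM of Egr1 when Ly6Chigh and 17.3, 6.28 and 2.61 CPM when Ly6Clow. In glioma monocytes of mice 22, 24 and 26 it was at 176, 200.1 and 150.5 CPM (GFPneg) and 88.6, 33.99 and 309 CPM (GFPpos). In macrophages of mice 22, 23, 24 and 26 the level was 49.9, 132, 342 and 52.2 CPM (CCR2high GFPneg), 119, 134, 292 and 86.3 CPM (CCR2high GFPpos), 239, 163, 422 and 72.7 CPM (CCR2low GFPneg) and 63.1, 34.6, 199.8 and 307 CPM (CCR2low GFPpos). Every brain replicate of Egr1 was above every blood replicate, although brain replicates of 1 population differed by several fold (log2 fold change 4.09 ± 0.64, edgeR adjusted p = 1.38e-05). Egr2 rose without overlap, from 0 to 9.55 CPM in blood to 23.5 to 158 CPM in brain. The orphan nuclear receptor Nr4a3 had 0 counts in all 6 blood replicates and 0.905 to 19.9 CPM in brain, at least 7.44-fold higher against a floor of 3 counts per library. Its relative Nr4a2 had 3 counts in blood altogether and a mean of 10.4 CPM in brain, a ratio of 57.2 (95% counting interval 19.6 to 277).

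Cebpd, a basic leucine zipper factor of the acute phase response, was the 1 factor of this group that was lower in brain, from a low level in blood. Cebpd stood at 8.50, 3.49 and 7.46 CPM in Ly6Chigh and 9.10, 19.2 and 4.36 CPM in Ly6Clow monocytes of mice 22, 23 and 24. The values for glioma monocytes of mice 22, 24 and 26 were 1.03, 2.11 and 0.643 CPM in GFPneg and 0.406, 1.36 and 1.46 CPM in GFPpos cells. For macrophages (mice 22, 23, 24 and 26) the values were 0.640, 0.625, 8.54 and 0.230 CPM (CCR2high GFPneg), 1.27, 0.824, 13.4 and 1.16 CPM (CCR2high GFPpos), 1.72, 1.59, 5.67 and 1.07 CPM (CCR2low GFPneg) and 2.37, 0.226, 0.896 and 1.60 CPM (CCR2low GFPpos). The log2 fold change was -2.16 ± 0.59 (edgeR adjusted p = 0.00492), the ranges overlapped, and the call was lost with spike-in scaling (adjusted p = 0.221). The highest brain values were 3 macrophage replicates of mouse 24.

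Among feedback regulators and small early genes, 7 of 9 were higher in brain (Zfp36, Dusp1, Dusp2, Dusp5, Socs3, Ier3 and Btg2) and Ier2 and Ier5 were not called. Without Dusp2, 6 of 8 were higher. Dusp5 stood above Ly6Chigh monocytes only. It was at 1.16 to 2.41 CPM there, at 12.9 to 25.5 CPM in Ly6Clow monocytes and at 3.80 to 31.7 CPM in brain. In blood, Zfp36 was at 545, 596 and 670.5 CPM in the Ly6Chigh monocytes of mice 22, 23 and 24 and at 209, 648 and 525 CPM in their Ly6Clow monocytes. Glioma monocytes of mice 22, 24 and 26 held 4733, 6666 and 3346 CPM when GFPneg and 4247, 4162 and 1979 CPM when GFPpos. Macrophages of mice 22, 23, 24 and 26 held 3279, 2559, 3326 and 2765 CPM (CCR2high GFPneg), 2827, 2348, 2848 and 2880 CPM (CCR2high GFPpos), 2295, 1685, 2488 and 2510 CPM (CCR2low GFPneg) and 2216, 1794, 2057 and 1925 CPM (CCR2low GFPpos). There was no overlap for this RNA-binding protein, which marks cytokine mRNAs for decay, and its log2 fold change was 2.47 ± 0.20 (edgeR adjusted p = 4.18e-10).

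The blood monocytes of mice 22, 23 and 24 held 40.2, 38.99 and 54.9 CPM of Dusp1 when Ly6Chigh and 121, 95.6 and 19.8 CPM when Ly6Clow. In glioma monocytes of mice 22, 24 and 26 it was at 1054, 1011 and 328 CPM (GFPneg) and 676, 216 and 404 CPM (GFPpos). In macrophages of mice 22, 23, 24 and 26 the level was 210, 857, 2539 and 174 CPM (CCR2high GFPneg), 906, 857, 3184 and 135 CPM (CCR2high GFPpos), 902, 243, 1296 and 135 CPM (CCR2low GFPneg) and 314, 114, 813 and 457 CPM (CCR2low GFPpos). Dusp1, a phosphatase that inactivates p38 and JNK, spread over more than a 10-fold range within the brain, mouse 24 highest among macrophages, and overlapped with blood (log2 fold change 3.55 ± 0.69, edgeR adjusted p = 0.0002). Ier3, a small regulator of survival and signalling, was the member with the smallest adjusted p. It stood at 4.36 to 18.1 CPM in blood and 299 to 1501 CPM in brain (log2 fold change 5.82 ± 0.27, edgeR adjusted p = 1.08e-14). Socs3, the feedback inhibitor of IL6 signalling, rose from 40.1 to 164 CPM in blood to 167 to 1610 CPM in brain. Btg2, an antiproliferative gene, overlapped (log2 fold change 1.01 ± 0.20). Ier2 had a log2 fold change of 0.17 ± 0.31 and Ier5 of 0.28 ± 0.33.

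Of the stress, survival and growth arrest genes, 4 of 5 were higher in brain (Cdkn1a, Ppp1r15a, Gadd45b and Rhob) and Mcl1 was lower. Cdkn1a stood at 59.5, 72.2 and 39.7 CPM in Ly6Chigh and 40.9, 53.7 and 47.4 CPM in Ly6Clow monocytes of mice 22, 23 and 24. The values for glioma monocytes of mice 22, 24 and 26 were 1101, 1664 and 1348 CPM in GFPneg and 1109, 824 and 699 CPM in GFPpos cells. For macrophages (mice 22, 23, 24 and 26) the values were 642, 428, 728 and 764 CPM (CCR2high GFPneg), 449.9, 417, 478 and 834 CPM (CCR2high GFPpos), 359.9, 256, 297 and 576 CPM (CCR2low GFPneg) and 435, 322, 365 and 501 CPM (CCR2low GFPpos). For this inhibitor of cyclin-dependent kinases the lowest brain replicate was above the highest of blood, with a log2 fold change of 3.60 ± 0.23 (edgeR adjusted p = 3e-12).

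In blood, Ppp1r15a was at 27.8, 15.1 and 42.1 CPM in the Ly6Chigh monocytes of mice 22, 23 and 24 and at 47.3, 0 and 63.04 CPM in their Ly6Clow monocytes. Glioma monocytes of mice 22, 24 and 26 held 305, 302 and 591 CPM when GFPneg and 94.9, 331 and 351 CPM when GFPpos. Macrophages of mice 22, 23, 24 and 26 held 284, 92.9, 194 and 325 CPM (CCR2high GFPneg), 126, 103, 156 and 398 CPM (CCR2high GFPpos), 173, 109, 169 and 347 CPM (CCR2low GFPneg) and 150.5, 128, 159 and 241 CPM (CCR2low GFPpos). Ppp1r15a, the phosphatase subunit that restores translation after stress, did not overlap either (log2 fold change 2.83 ± 0.54, edgeR adjusted p = 0.000143). Gadd45b, a stress sensor upstream of p38, rose from 0.698 to 17.1 CPM in blood to 31.9 to 203 CPM in brain.

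Mcl1, a BCL2 family survival protein, was lower in brain. The blood monocytes of mice 22, 23 and 24 held 119, 186 and 158 CPM of Mcl1 when Ly6Chigh and 156, 563 and 162 CPM when Ly6Clow. In glioma monocytes of mice 22, 24 and 26 it was at 248, 172 and 196 CPM (GFPneg) and 197, 135 and 146 CPM (GFPpos). In macrophages of mice 22, 23, 24 and 26 the level was 127, 88.5, 82.4 and 129 CPM (CCR2high GFPneg), 103, 110.4, 57.97 and 98.3 CPM (CCR2high GFPpos), 81.5, 90.6, 99.7 and 98.4 CPM (CCR2low GFPneg) and 72.2, 61.3, 81.8 and 104 CPM (CCR2low GFPpos). The highest value by far was the Ly6Clow library of mouse 23, and the ranges overlapped. Glioma monocytes, at 135 to 248 CPM, were not below Ly6Chigh monocytes, at 119 to 186 CPM. Macrophages were lowest, at 57.97 to 129 CPM. The log2 fold change was -0.88 ± 0.20 (edgeR adjusted p = 0.00075). It was -0.49 without both replicates that stand apart, and 0.07 with spike-in scaling, so its direction depends on the scaling.

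**Figure D2:**
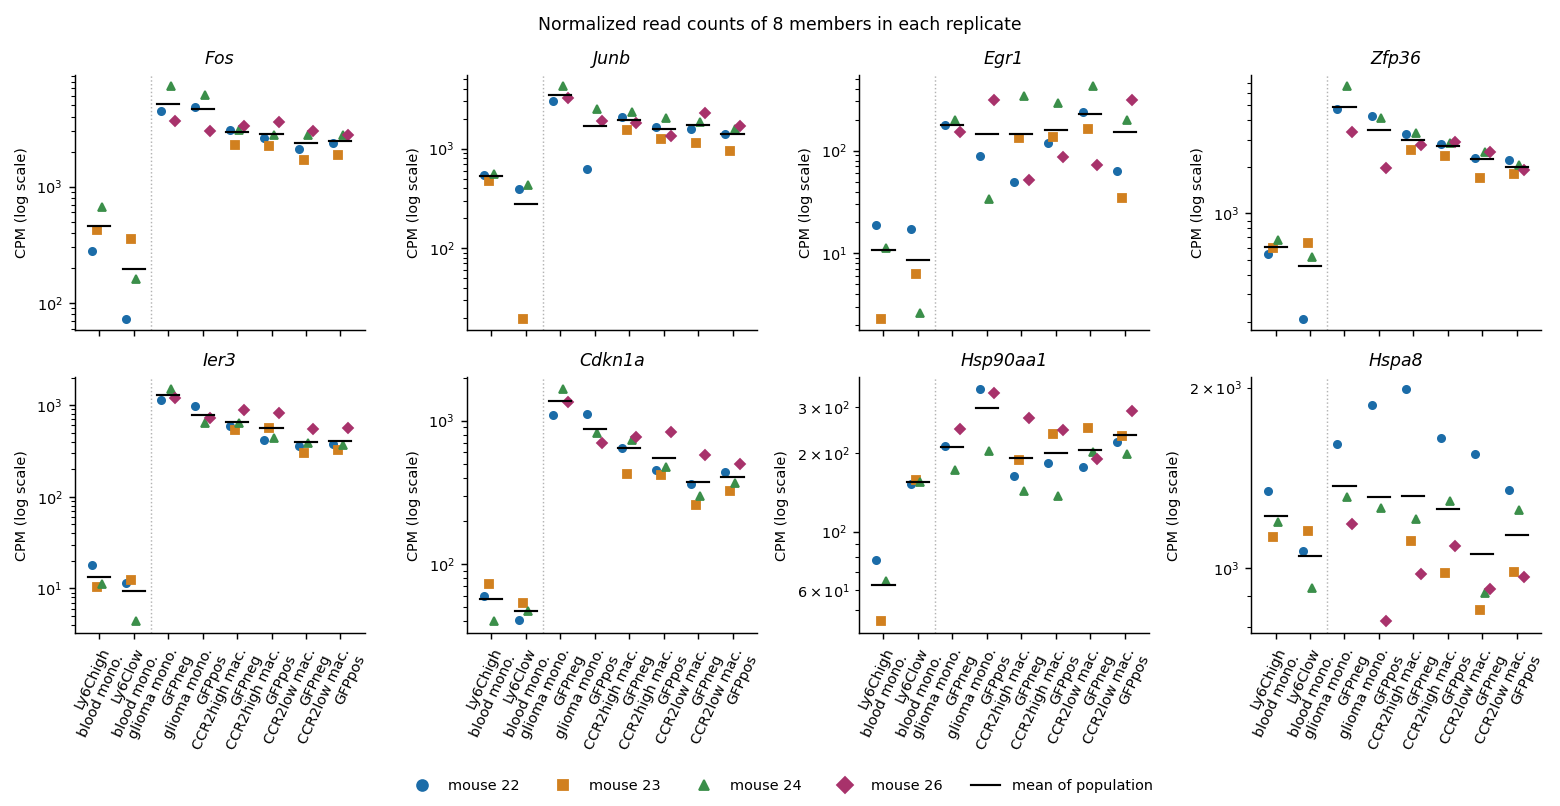
Normalized read counts (CPM, log scale) of 8 members in each replicate of the 8 populations; points are replicates, marked by mouse, lines are population means, and the dotted line parts blood from brain. The 6 early members sit above blood in every brain replicate, Hsp90aa1 is lowest in Ly6Chigh monocytes, and Hspa8 lies between 816 and 1990 CPM throughout.

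Among the 9 heat-shock genes the picture was mixed. Hspa1a, Hsp90aa1, Hsph1, Hspd1 and Hspe1 were higher in brain, and Hspa8, Hspa1b, Dnajb1 and Dnaja1 were not called. Hspa8 is the constitutive chaperone of the HSP70 family. Hspa8 stood at 1344, 1126 and 1194 CPM in Ly6Chigh and 1070, 1154 and 928 CPM in Ly6Clow monocytes of mice 22, 23 and 24. The values for glioma monocytes of mice 22, 24 and 26 were 1614, 1316 and 1188 CPM in GFPneg and 1871, 1259 and 816 CPM in GFPpos cells. For macrophages (mice 22, 23, 24 and 26) the values were 1990, 1109, 1211 and 977 CPM (CCR2high GFPneg), 1652, 984, 1295 and 1091 CPM (CCR2high GFPpos), 1548, 853, 909.8 and 924 CPM (CCR2low GFPneg) and 1353, 986, 1249 and 966 CPM (CCR2low GFPpos). The ranges overlapped and the log2 fold change was 0.13 ± 0.16 (edgeR adjusted p = 0.572).

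Hsp90aa1 is the inducible HSP90. In blood, Hsp90aa1 was at 78.2, 45.4 and 64.8 CPM in the Ly6Chigh monocytes of mice 22, 23 and 24 and at 152, 158 and 155 CPM in their Ly6Clow monocytes. Glioma monocytes of mice 22, 24 and 26 held 212, 173 and 246 CPM when GFPneg and 351, 203 and 338 CPM when GFPpos. Macrophages of mice 22, 23, 24 and 26 held 163, 188, 143 and 272 CPM (CCR2high GFPneg), 183, 236, 137 and 245 CPM (CCR2high GFPpos), 176, 249.9, 202 and 189 CPM (CCR2low GFPneg) and 219.8, 231, 197 and 288 CPM (CCR2low GFPpos). Ly6Chigh monocytes were lowest and Ly6Clow monocytes overlapped with the brain, with a log2 fold change for brain versus blood of 1.16 ± 0.17 (edgeR adjusted p = 4.12e-06).

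The inducible HSP70 gene Hspa1a was at 0 to 24.9 CPM in blood and 8.61 to 163 CPM in brain (log2 fold change 1.99 ± 0.57, edgeR adjusted p = 0.00703). Its near-copy Hspa1b was at 6.58 to 60.03 CPM in blood and 2.64 to 172 CPM in brain and was not called (0.35 ± 0.58, edgeR adjusted p = 0.673). Most windows of either gene occur also in the other or in Hspa1l, and how the counting treated such reads bears on both values. Both mitochondrial chaperonins were higher in brain, Hspe1 with a log2 fold change of 1.10 ± 0.26 (edgeR adjusted p = 0.00116) and Hspd1 with 1.25 ± 0.42 (edgeR adjusted p = 0.0194). They did not move together in every library, as the Ly6Clow library of mouse 23 held 157 CPM of Hspe1 and 0 of Hspd1. The DNAJ co-chaperones that feed HSP70 had log2 fold changes of -0.03 ± 0.24 (Dnajb1) and -0.15 ± 0.24 (Dnaja1). The call of Hsph1, an HSP110 exchange factor (1.15 ± 0.45, edgeR adjusted p = 0.0421), was lost in 25 of 36 alternatives and that of Hspd1 in 4.

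**Figure D3:**
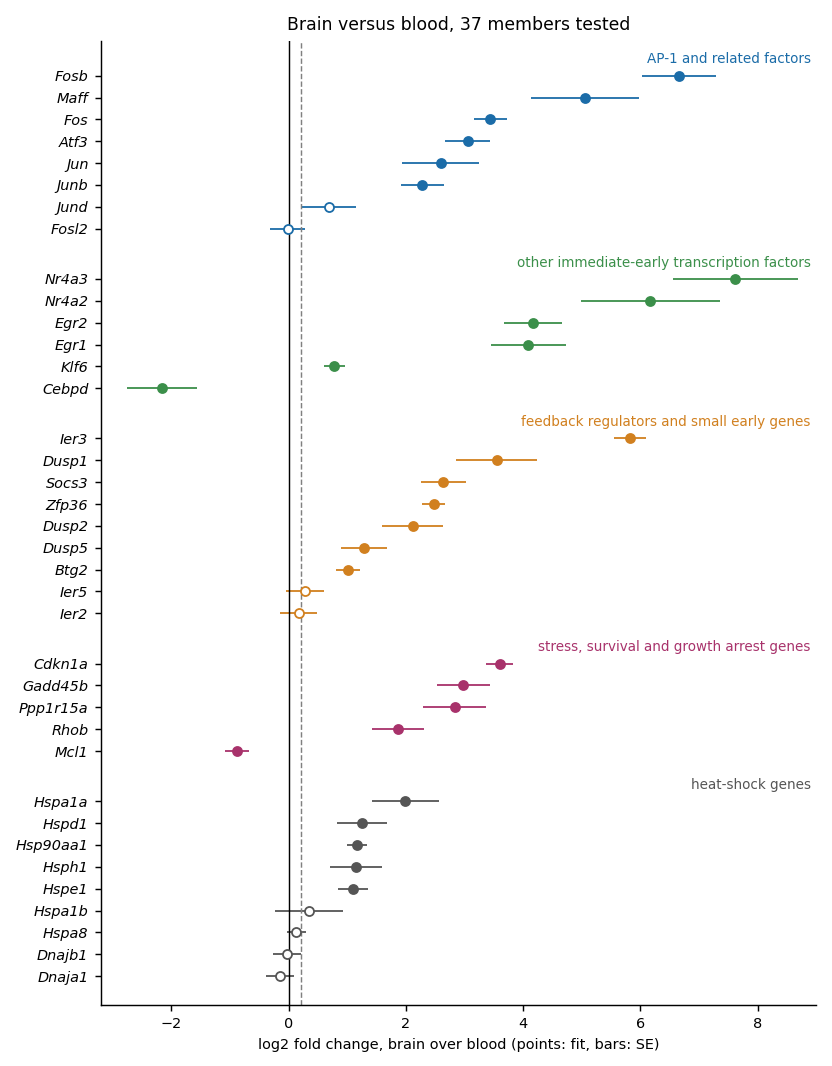
Fitted log2 fold change of brain over blood for the 37 members tested, grouped and coloured by role; bars are standard errors, filled points are called at an adjusted p under 0.05 and open points are not, and the dashed line is the median of all genes (0.21). Early and stress members reach far to the right with Mcl1 and Cebpd below 0, while the heat-shock members lie between -0.15 and 1.99.

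Each GFPneg brain population was set against Ly6Chigh blood monocytes, the cells that enter a glioma, and these comparisons share their Ly6Chigh replicates. In GFPneg glioma monocytes 22 of 37 members were higher and 0 lower, where 13.6% of all genes were called, 10.9% as higher and 2.71% as lower. In GFPneg CCR2high macrophages 20 were higher and 0 lower, where 17.8% of genes were called, 12.7% as higher and 5.05% as lower. In GFPneg CCR2low macrophages 20 were higher and 0 lower, where 20.2% were called, 14.1% as higher and 6.09% as lower. The medians over the members were 2.98, 1.88 and 1.89 on the log2 scale, beside 0.10, 0.15 and 0.16 over all genes. DESeq2 called 24, 22 and 23 members as higher and 0 as lower, among 2120, 2771 and 3030 genes called in either direction. Over the 31 members that reached the filter in blood, 16, 15 and 15 were higher, with medians of 1.74, 1.17 and 1.70, where 6.03%, 7.34% and 7.61% of such genes were higher and their medians were -0.10, -0.08 and -0.08. Markers of T and NK cells summed to 16.9 to 111 CPM in Ly6Chigh monocytes and 367 to 1233 CPM in these brain populations, and their part was not tested.

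The same roles filled each count. Fos, Fosb, Junb, Atf3, Egr1, Egr2, Nr4a2, Nr4a3, Zfp36, Dusp1, Dusp2, Dusp5, Socs3, Ier3, Gadd45b, Ppp1r15a, Cdkn1a and Hsp90aa1 were called in all 3 comparisons. Btg2 was called in glioma monocytes and CCR2high macrophages. Klf6, Maff and Hspa1a were called in glioma monocytes, Hspe1 in both macrophage populations and Rhob in CCR2low macrophages. Of these members, Fosb, Egr2, Dusp2, Nr4a2, Nr4a3 and Maff had passed the filter through brain alone. Without them, 3 of 6 AP-1 and related factors were called in each comparison. Of the other immediate-early transcription factors, 2 of 3 were then called in glioma monocytes and 1 of 3 in each macrophage population. Whether these folds differ between the brain populations is answered by the comparisons within the brain below. Ier3 had log2 fold changes of 6.60 ± 0.41 (glioma monocytes), 5.64 ± 0.39 (CCR2high) and 4.92 ± 0.38 (CCR2low macrophages). Cdkn1a had 4.59 ± 0.36, 3.49 ± 0.33 and 2.71 ± 0.32 in that order. Hsp90aa1 had 1.74 ± 0.28, 1.61 ± 0.27 and 1.70 ± 0.27. Fosb, at 3 counts over the Ly6Chigh replicates, was 164-fold higher in glioma monocytes (95% counting interval 56.1 to 794).

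With spike-in scaling in place of TMM the counts of members called fell to 6 (glioma monocytes), 7 (CCR2high) and 4 (CCR2low macrophages), as 3.44%, 4.52% and 5.11% of genes were then called. Hspa1a was called in glioma monocytes at an adjusted p of 0.0331 and lost under the replicate block among 7 of 15 alternatives (edgeR). The call of Junb was lost in 6 of 16 alternatives in CCR2high and 7 of 16 in CCR2low macrophages, the removal of any 1 Ly6Chigh replicate among them. That of Rhob was lost in 5 of 16, without the Ly6Chigh replicate of mouse 22 or 24 or the CCR2low replicate of mouse 24 among others. Ppp1r15a and Gadd45b in CCR2low macrophages, Ppp1r15a and Btg2 in CCR2high macrophages and Maff in glioma monocytes each lost theirs in 4 alternatives, each time including the removal of 1 Ly6Chigh replicate, that of mouse 23.

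Within the blood, where no enzymes were used, 2 of 37 members were called between Ly6Chigh and Ly6Clow monocytes, both lower in Ly6Chigh, where 5.25% of all genes were called, 2.3% as higher and 2.95% as lower, so the share of members (5.41%) was close to that of all genes. Dusp5, a nuclear phosphatase of ERK, was at 1.70, 1.16 and 2.41 CPM in Ly6Chigh and 25.5, 12.9 and 15.4 CPM in Ly6Clow monocytes (mice 22, 23 and 24). Its log2 fold change of Ly6Chigh over Ly6Clow was -3.26 ± 0.70 (n = 3 each, edgeR adjusted p = 0.00621). Hsp90aa1 was at 78.2, 45.4 and 64.8 CPM against 152, 158 and 155 CPM, a log2 fold change of -1.30 ± 0.28 (edgeR adjusted p = 0.00607). The replicates did not overlap for either gene, nor for Ier5, which was not called, as for 6.26% of genes in this direction. Fosl2, Junb, Klf6 and Gadd45b did not overlap in the other direction, higher in Ly6Chigh, as 12.2% of genes, and were not called. Without the Ly6Chigh replicate of mouse 23 no member was called, without the Ly6Clow replicate of mouse 23 there were 4, and without that of mouse 24 there were 5. With spike-in scaling none was called and Hsp90aa1 turned to 0.46. Markers of T and NK cells summed to 16.9 to 111 CPM in Ly6Chigh and 693 to 1096 CPM in Ly6Clow monocytes, and their part in this was not tested.

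Within the brain, where all cells had been released with enzymes, GFPneg glioma monocytes carried more of 3 members than GFPneg CCR2low macrophages, where 1.09% of all genes were called and 0.951% as higher and 0.138% as lower. Ier3 was at 1136, 1501 and 1207 CPM in the glioma monocytes (mice 22, 24 and 26) and at 357, 299, 388 and 550 CPM in the macrophages (mice 22, 23, 24 and 26). The log2 fold change was 1.68 ± 0.30 (edgeR adjusted p = 0.00259). Cdkn1a was at 1101, 1664 and 1348 CPM against 359.9, 256, 297 and 576 CPM. Its log2 fold change was 1.88 ± 0.29 (edgeR adjusted p = 0.000495). Zfp36 was at 4733, 6666 and 3346 CPM against 2295, 1685, 2488 and 2510 CPM (1.13 ± 0.28, edgeR adjusted p = 0.0466).

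For each of these 3 genes every monocyte replicate lay above every macrophage replicate. That held for 15 members in all (Fos, Fosl2, Junb, Egr2, Atf3, Ier2, Ier3, Zfp36, Btg2, Dnajb1, Socs3, Klf6, Mcl1, Maff and Cdkn1a), as for 7.13% of genes, and for no member in the other direction, as for 6.61%. The median log2 fold change was 0.79 over the members and -0.05 over all genes. With the mouse as replicate block 6 members were called, and without both replicates that stand apart 8. With spike-in scaling or with only the first of repeated libraries none was called. The latter setting put back the failed first library of Ly6Clow monocytes of mouse 23. The call of Zfp36 was lost in 8 of 16 alternatives. Microglia markers summed to 2092 to 3325 CPM in these monocytes and 4096 to 11120 CPM in these macrophages, and their part was not tested.

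Between GFPneg glioma monocytes and GFPneg CCR2high macrophages edgeR called 0 members, where 0.173% of genes were called. The unadjusted p was under 0.05 for 8 of 37 members (Atf3, Cdkn1a, Fos, Hspa1a, Ier3, Klf6, Mcl1 and Zfp36), as for 5.36% of genes. DESeq2 called 103 genes, with Cdkn1a the only member among them. Fitted values were above 0 for 33 of 37, with a median of 0.68. In 9 members every monocyte replicate lay above every macrophage replicate, as in 5.79% of genes, and in 0 below, as in 5.95%. Between GFPneg CCR2high and CCR2low macrophages edgeR called 0 members and 0% of genes. The unadjusted p was under 0.05 for 3 members, as for 2.37% of genes, and DESeq2 called 8 genes, 0 of them members. Cdkn1a had the smallest p there, with a log2 fold change of 0.78 ± 0.27. For Ier3 and Cdkn1a the fitted level fell between those of the glioma monocytes and the CCR2low macrophages, and neither step passed the threshold.

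Uptake of tumor membrane was not accompanied by a call in any member. GFPpos and GFPneg cells gave 0 calls by edgeR, and 0% of genes, in glioma monocytes, CCR2high macrophages and CCR2low macrophages. DESeq2 called 19, 1 and 3 genes in that order, and 0 members in each. Members with an unadjusted p under 0.05 numbered 6 (Cdkn1a, Hspa1a, Hspe1, Ier2, Ier3 and Socs3), 0 and 0, beside 6.4%, 0.614% and 1.59% of genes. The median log2 fold changes of GFPpos over GFPneg were -0.51, -0.11 and -0.23. In glioma monocytes 32 of the 37 fitted values were below 0. There Fosl2, Junb, Egr2, Ier3 and Socs3 were lower in each GFPpos than in any GFPneg replicate, as were 7.45% of genes, and Hspe1 and Hspd1 were higher, as were 6.12%. Socs3 was the most separated, at 209, 199 and 748 CPM in GFPpos and 970, 1610 and 1098 CPM in GFPneg cells (-1.67 ± 0.58, edgeR adjusted p = 0.638). GFPpos glioma monocytes include the summed pair of libraries of mouse 22. The difference between monocytes and macrophages in this effect was tested as an interaction. That test called 0 of 37 members and 0 of 11566 genes, with 1 member at an unadjusted p under 0.05.

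**Figure D4:**
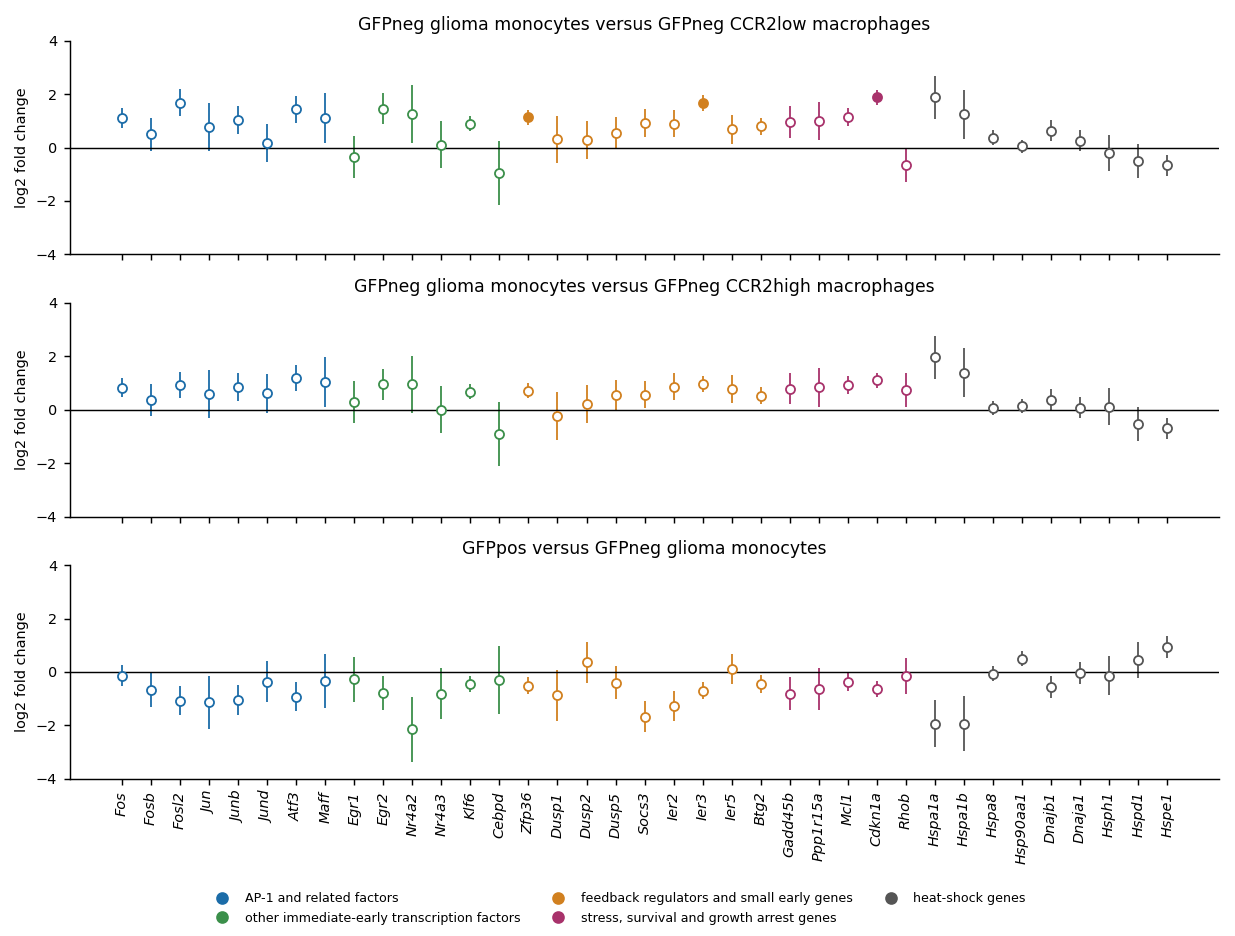
Fitted log2 fold changes of the 37 members tested in 3 comparisons within the brain, coloured by role; bars are standard errors, filled points are called at an adjusted p under 0.05 and open points are not. Ier3, Zfp36 and Cdkn1a are the filled points in the top panel, and the lower panels hold open points throughout.

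Levels of many members differed between mice. Among the 16 macrophage libraries, 4 from each mouse and with population as a term, 22 of 36 members tested differed between mice (edgeR quasi-likelihood test, adjusted p under 0.05), where 17.9% of 10578 genes did. The test compares these 4 animals by 4 libraries each, so sex, tumor and day of handling cannot be told apart from the animal. Of the 22, 12 were highest in mouse 26, 7 in mouse 24, 3 in mouse 22 and 0 in mouse 23. Among all 1889 genes called the shares were 49.6%, 26.8%, 14.9% and 8.68%, close to those of the members.

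The genes highest in mouse 26 were Fos, Fosb, Fosl2, Egr2, Atf3, Ier3, Hspa1a, Hspa1b, Hsp90aa1, Gadd45b, Ppp1r15a and Cdkn1a. Gadd45b was at 42.7 to 61.2 CPM in mouse 22, 31.9 to 66.3 CPM in mouse 23, 35.5 to 80.9 CPM in mouse 24 and 81.96 to 154 CPM in mouse 26. Hspa1a was at 8.61 to 14.7 CPM in mouse 22, 13.3 to 27.4 CPM in mouse 23, 10.8 to 30.1 CPM in mouse 24 and 43.95 to 60.4 CPM in mouse 26. Each of these 2 genes was higher in every library of mouse 26 than in any other library, and edgeR gave adjusted p = 0.00111 for Gadd45b and 0.00202 for Hspa1a. The same held for Atf3 (336 CPM at the least in mouse 26, at most 329 CPM elsewhere) and Fosl2.

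Mouse 24 led in Junb, Ier5, Zfp36, Btg2, Hspe1, Klf6 and Rhob. Ier5 was at 15.5 to 23.7 CPM in mouse 22, 17.2 to 27.6 CPM in mouse 23, 35.8 to 60.97 CPM in mouse 24 and 18.97 to 25.01 CPM in mouse 26. All 4 libraries of mouse 24 were above the other 12 (edgeR adjusted p = 0.00157). Jun, Dusp1 and Egr1 were highest in mouse 24 as well, with mouse means for Dusp1 from 225 CPM in mouse 26 to 1960 CPM in mouse 24, but libraries of a mouse differed so much that none of these 3 was called (adjusted p = 0.0778, 0.0795 and 0.223). In mouse 22 the CCR2high GFPneg library held 210 CPM of Dusp1 where the GFPpos library held 906 CPM.

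Mouse 22 led in Hspa8, Dnaja1 and Hsph1. Hspa8 was at 1353 to 1990 CPM in mouse 22, 853 to 1109 CPM in mouse 23, 909.8 to 1295 CPM in mouse 24 and 924 to 1091 CPM in mouse 26. Its lowest library was above the highest of the other mice (edgeR adjusted p = 0.000404). The summed level of the 9 heat-shock members was highest in mouse 22 in each of the 8 populations, blood included. Hspa1a and Hspa1b were highest in mouse 26 and Hspe1 was lowest there. Without mouse 26, 13 members were called, where 4.3% of genes were. Of the 22 members, 15 had in GFPneg glioma monocytes the same highest mouse of 22, 24 and 26 as in macrophages, a share of 68.2% beside 73.4% of all genes called, and 10 in GFPpos glioma monocytes, 45.5% beside 58.3%. Markers of neutrophils summed to 323 to 1974 CPM in macrophages of mouse 24 and 4.75 to 536 CPM in those of the others, those of microglia to 4804 to 11120 CPM and 2689 to 5567 CPM. Their part was not tested.

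**Figure D5:**
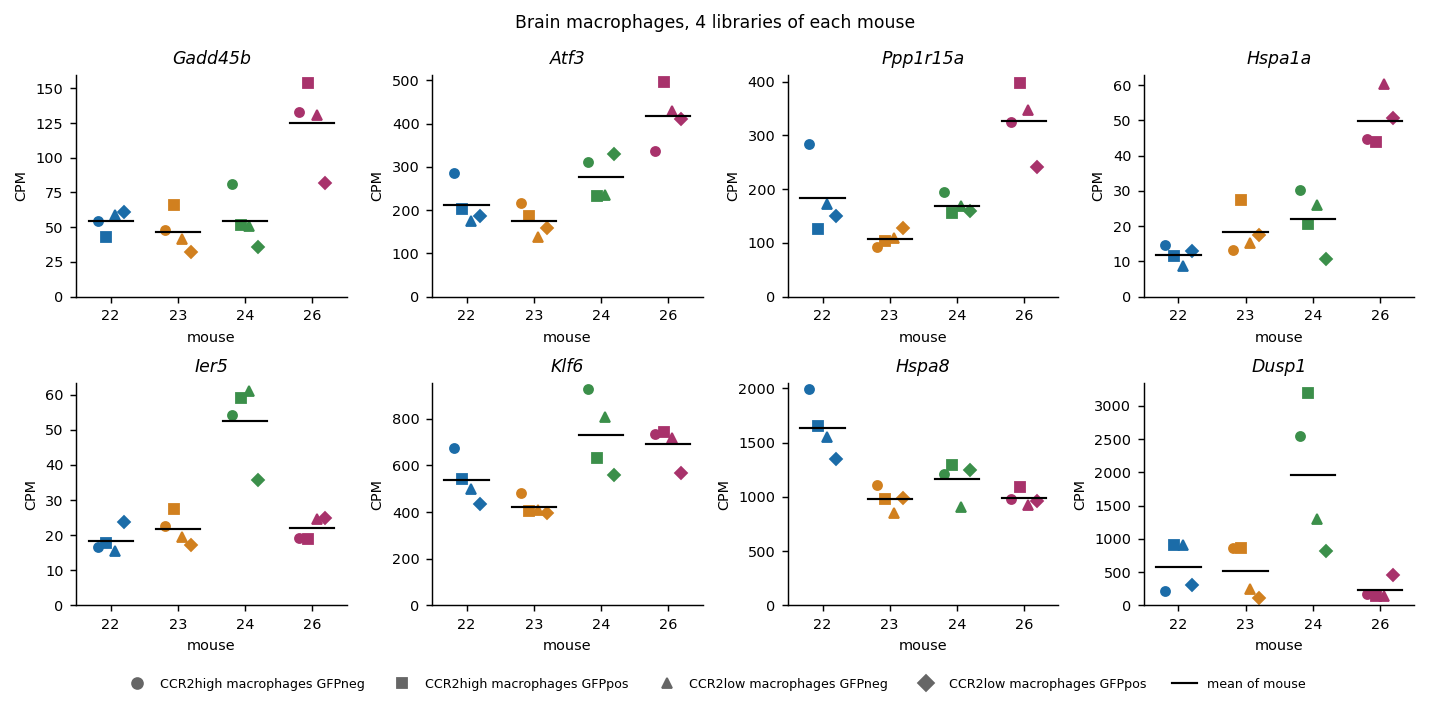
CPM of 8 members in the 16 macrophage libraries by mouse; symbols mark the 4 macrophage populations, colours the mice, and lines the mouse means. The upper row is highest in mouse 26, Ier5, Klf6 and Dusp1 in mouse 24 and Hspa8 in mouse 22, with Dusp1 spread from 114 to 3184 CPM.

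Genes that act beside the members were described from 4 lists, whose counts are to be read beside the 26.4% of all genes that were higher and the 12.9% that were lower in brain than in blood. They include genes, such as Rgs1, Cyr61, Dusp4, Slc7a11, Asns and Cryab, that passed the filter through brain libraries alone and had to be higher there. The counts and medians of the lists were not repeated without such genes. Of 34 tested genes of an early response list outside the module, 18 were higher and 5 lower in brain than in blood, with a median log2 fold change of 1.15. Rgs1, a regulator of chemokine receptor signalling, was at 417 ± 141 CPM in brain and 4.30 ± 6.17 CPM in blood (SD, log2 fold change 7.41 ± 0.56, edgeR adjusted p = 8.63e-11). The matricellular Cyr61 and the phosphatase Dusp4 were at 0 in all blood replicates and at 59.8 and 6.10 CPM on average in brain. The 5 that were lower, named after their values were seen, were Klf2, Klf4, Klf10, Dusp16 and Rgs2.

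Of 27 tested genes of the signalling upstream (SRF and its cofactors, CREB factors and MAP kinases), 1 was higher and 9 lower. The one that rose was Crem, itself an induced CREB family gene, from 4.21 ± 3.82 to 55.8 ± 19.6 CPM (log2 fold change 3.72 ± 0.47, edgeR adjusted p = 4.94e-07). Mkl1, the SRF cofactor, was lower (-1.73 ± 0.30), as was the stress kinase gene Map3k5 (-1.86 ± 0.43). The list's median was -0.34, beside 0.21 over all genes.

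Of 45 tested chaperones outside the module 19 were higher and 1 was lower (Dnajc5, named after its value was seen), with a median of 0.39. The mitochondrial HSP70 gene Hspa9 rose by 1.40 ± 0.22 on the log2 scale, and the small heat-shock gene Cryab was at 29.6 ± 26.6 CPM in brain and 0.870 ± 1.08 CPM in blood. Of 23 tested genes of the integrated stress response, 12 were higher and 2 lower, with a median of 0.58. The cystine transporter gene Slc7a11 was at 80.8 ± 27.6 CPM in brain and 0.834 ± 1.40 CPM in blood (log2 fold change 7.03 ± 0.53, edgeR adjusted p = 8.63e-11), and the asparagine synthetase gene Asns rose by 4.98 ± 0.47. Between Ly6Chigh and Ly6Clow monocytes 6 of the other early response genes were lower in Ly6Chigh and 0 higher, among them Dusp16, Rgs1 and Pim1, where 2.95% of all genes were lower and 2.3% higher. Within the brain, 0 genes of the 4 lists were called between GFPpos and GFPneg cells or between CCR2high and CCR2low macrophages, and 1 (Nupr1) between GFPneg glioma monocytes and CCR2low macrophages.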

How the data were processed

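RNA of sorted populations was sequenced as 75-base paired reads. Per the study's methods and the labels, the authors aligned reads with STAR to mm10 (GRCm38.p3), removed duplicates with Picard 1.8.4 and counted reads per gene with HTSeq by strict intersection. The authors deposited raw counts of 45317 genes and 92 ERCC spike-ins for 30 libraries. The strand setting is not given in the sources used here. Reads in no feature made up 6.28 to 17.4% and ambiguous reads 1.58 to 1.90%, and both stayed out of library sizes.

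Members, roles and lists were chosen with earlier results of these data known. Libraries of 1 sample were summed, except that the failed first library of Ly6Clow monocytes of mouse 23 was replaced by the second, giving 28 replicates. Genes with 4.67 CPM or more in at least 3 libraries (filterByExpr) were tested (11566) with edgeR 4.0.16 (TMM, quasi-likelihood) in R 4.3.3, all 8 populations in 1 fit, with Benjamini-Hochberg adjustment over all genes and a threshold of 0.05. That fit had no term for the mouse. Mice were compared over the 16 macrophage libraries. Alternatives were DESeq2 1.42.0, its size factors, spike-in scaling, no filter, the mouse as block and the compared populations alone. Others left out replicates or a mouse, or took only the first library of each sample. That last setting put back the failed library of Ly6Clow monocytes of mouse 23. Intervals and floors (3 counts) cover counting error only. Named genes are the members themselves, with values for each replicate for the leading pair of each role by mean CPM, those called within a tissue and those lower in brain. The scripts were tested on simulated counts.

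The replicate number was taken as the mouse. Deviations from population means correlated at a median of 0.135 between populations of the same mouse (86 pairs, 47 over 0.1) and -0.0292 between mice (256 pairs). Gene positions are from GENCODE vM21, which matched 41743 symbols. The promoters are from RefSeq.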

Additional observations from a re-analysis of the deposited data

Results flagged for a closer look

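In 13 of 148 groups of 4 macrophage replicates (8.78%) 1 replicate lay far from the other 3 by Dixon's test, where chance gives about 1 in 20. In mouse 26 these were Fosl2 in CCR2low GFPpos macrophages at 39.92 CPM (others 17.32 to 20.37), Atf3 in CCR2high GFPpos at 495.3 CPM (186.4 to 233.7) and Hspa1a in CCR2low GFPpos at 50.56 CPM (10.75 to 17.42). Cdkn1a in CCR2high GFPpos macrophages of mouse 26 stood at 833.5 CPM (417.2 to 477.8), and Socs3 in its CCR2high GFPneg macrophages was low at 408.1 CPM (932 to 1027). In mouse 24, Ier5 was at 54.24 CPM in CCR2high GFPneg macrophages (16.65 to 22.7) and Rhob at 63.81 CPM in CCR2low GFPneg (12.83 to 21.4). Cebpd of mouse 24 stood apart in 3 populations, at 8.538 CPM in CCR2high GFPneg (0.2302 to 0.6402), 13.42 CPM in CCR2high GFPpos (0.8237 to 1.274) and 5.672 CPM in CCR2low GFPneg macrophages (1.069 to 1.722). In mouse 22, Hspa8 was at 1548 CPM in CCR2low GFPneg (853.2 to 923.7) and Hsph1 at 90.27 CPM in CCR2high GFPneg macrophages (50.82 to 56.39). Zfp36 in CCR2high GFPpos macrophages of mouse 23 was low at 2348 CPM (2827 to 2880).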

How the results depend on the processing

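Of the counts of members called, 184 values under the alternatives stayed within 1.5 times the main count and 20 did not. Spike-in scaling moved the counts to 6 in glioma monocytes, 7 in CCR2high and 4 in CCR2low macrophages against Ly6Chigh monocytes, 0 in Ly6Chigh against Ly6Clow monocytes, 0 in glioma monocytes against CCR2low macrophages and 14 between mice. It shifted the median of all genes from 0.21 to 0.68 in brain versus blood and from 0.11 to 1.69 within blood, and reversed Mcl1 in brain versus blood (0.07) and Hsp90aa1 within blood (0.46). Within blood DESeq2 called 4, the first library alone 0, the compared populations alone 0, and the counts without both replicates that stand apart 4. The first-library setting put back the failed Ly6Clow library of mouse 23. Between glioma monocytes and CCR2high macrophages DESeq2, the compared populations alone and the counts without both replicates that stand apart each gave 1. Between glioma monocytes and CCR2low macrophages the replicate block gave 6, the first library alone 0 and the counts without both replicates that stand apart 8. The block moved no other count of members by over 1.5 times. Leaving out 1 replicate gave 27 to 29 in brain versus blood, 19 to 22, 16 to 20 and 16 to 21 against Ly6Chigh monocytes, 0 to 5 within blood, 2 to 3 for glioma monocytes against CCR2low macrophages, and 0 to 0 in the other comparisons of populations. Leaving out 1 mouse with all its macrophage libraries gave 13 to 20 between mice. The cause of these changes was not tested. The second library of mouse 22 alone and the removal of both replicates were chosen after seeing the data. The spike-in share of the replicates ran from 0.2838% to 13.27%, and 3 to 4 replicates a population limit the comparisons within a tissue.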

Other observations

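Repeat libraries of 1 sample did not hold the same levels of some members. For GFPpos glioma monocytes of mouse 22, Junb was at 1730 and 31.7 CPM without TMM scaling in the first and second library, Jun at 215 and 23.7, Ppp1r15a at 167 and 46.9, and Fos at 3390 and 4540. For Ly6Clow monocytes of mouse 23 the failed first library had 17 members at 0 counts and the second, which was used, 10. There Junb was at 198 and 20.8 and Zfp36 at 9.16 and 690 CPM without TMM scaling.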
